A study of Mus musculus with 7 samples.

Results

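The 8 genes described here make, package, take up and break down the transmitter GABA, anchor its receptors, or carry the chloride that its receptors let through. They are Gad1, Gad2, Slc32a1, Slc6a11, Abat, Gphn, Slc12a2 and Slc12a5, chosen by symbol as 8 of the 19257 genes in the normalized counts of mouse glioma tissue, and all 8 were abundant enough to be tested. None differed between GPC6 and 3xCR tumors at an adjusted p of 0.05 in limma with all libraries weighted equally. In a fit with a weight per library, 1962 of the 14782 genes tested passed that threshold, Gad1, Gad2, Slc32a1 and Slc12a5 among them. Those weights lay mostly on 3xCR replicate 3 and GPC6 replicate 3. Gad1, Gad2, Slc32a1 and Slc12a5 nevertheless spanned 49.9-fold to 122-fold from the lowest to the highest library and were high and low in nearly the same libraries, whereas Slc12a2 spanned 3.99-fold and followed another order. The same 4 genes also followed markers of neurons in general, with Pearson r of 0.94 to 0.995 over the libraries.

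Tumors were induced in mice of CD-1 and C57BL/6 background by in utero electroporation of progenitors at the ventricle. Both groups carried a CRISPR construct with Cas9 and guides to tumor suppressors that include Trp53 and Nf1, and 3xCR tumors did not receive GPC6. The study used a piggyBac system for a GFP reporter, for GPC6, or for both, and does not name the reporter of each sequenced tumor. GPC6 tumors also overexpressed the cell surface glypican GPC6 from a piggyBac transposon carried by the electroporated cells and their progeny. Tissue was taken at endpoint under fluorescence from 3 3xCR tumors (replicates 2, 3 and 4) and 4 GPC6 tumors (replicates 1 to 4), and poly(A) RNA was sequenced, with no tumor-free brain among the libraries. Each library came from 1 brain, and the background strain and endpoint age of each animal are not given in the sources used here. The tissue mixes RNA from tumor cells, neurons and glia, and in such bulk samples fewer cells of a type and less RNA per cell cannot be told apart.

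GABA is made from glutamate by the glutamate decarboxylases of Gad1 and Gad2, loaded into vesicles by the transporter of Slc32a1, cleared by transporters such as that of Slc6a11, which is found mainly on astrocytes, and broken down by the transaminase of Abat. Gephyrin, the product of Gphn, holds GABA-A receptors at the synapse. These receptors are chloride channels, and the gradient they draw on is set by the importer of Slc12a2 (NKCC1) and the exporter of Slc12a5 (KCC2), so that a neuron with much importer and little exporter responds to GABA with less inhibition or with depolarization. The exporter is a neuronal protein that increases as neurons mature, while the importer is also present in glia and in the choroid plexus. The comparison addresses whether these parts of GABA signaling differ between the 2 kinds of tumor. The study also stained synaptic proteins, those of Slc32a1 and Gphn among them. That staining was done around the margins of tumors at an earlier stage, so it differs from the RNA in measure, tissue and time.

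The promoters of Gad1, Gad2, Slc32a1 and Slc12a5 are shown because these 4 genes moved together across the libraries. That movement was not particular to them, as markers of neurons in general shared it. Each line holds the 250 bases before a transcription start of RefSeq on the plus strand of GRCm38.p6, in lower case with every CANNTG, the E-box to which basic helix-loop-helix factors bind, in capitals. The windows lie at chr2:70561879-70562128 for Gad1, chr2:22622077-22622326 for Gad2, chr2:158610508-158610757 for Slc32a1, and chr2:164960596-164960845 and chr2:164967738-164967987 for the 2 starts of Slc12a5, which a count per gene cannot separate.
Gad1: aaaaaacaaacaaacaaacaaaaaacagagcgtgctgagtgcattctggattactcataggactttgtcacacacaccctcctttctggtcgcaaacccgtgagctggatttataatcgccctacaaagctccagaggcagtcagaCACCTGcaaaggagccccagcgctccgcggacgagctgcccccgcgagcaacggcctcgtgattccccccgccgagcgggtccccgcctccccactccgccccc
Gad2: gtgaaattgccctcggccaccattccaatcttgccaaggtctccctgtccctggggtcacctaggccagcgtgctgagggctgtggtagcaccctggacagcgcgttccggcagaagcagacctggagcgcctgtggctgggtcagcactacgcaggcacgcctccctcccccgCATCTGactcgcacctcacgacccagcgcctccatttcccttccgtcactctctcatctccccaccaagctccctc
Slc32a1: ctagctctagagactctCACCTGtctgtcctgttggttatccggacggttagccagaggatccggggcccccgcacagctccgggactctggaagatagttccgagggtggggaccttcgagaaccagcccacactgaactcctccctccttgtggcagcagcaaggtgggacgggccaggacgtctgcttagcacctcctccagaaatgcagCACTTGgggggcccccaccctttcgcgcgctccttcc
Slc12a5 first start: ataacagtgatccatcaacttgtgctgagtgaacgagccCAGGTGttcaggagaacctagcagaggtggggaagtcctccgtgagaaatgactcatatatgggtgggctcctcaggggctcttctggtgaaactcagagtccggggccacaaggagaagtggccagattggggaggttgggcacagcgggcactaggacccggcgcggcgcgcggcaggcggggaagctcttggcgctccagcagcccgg
Slc12a5 second start: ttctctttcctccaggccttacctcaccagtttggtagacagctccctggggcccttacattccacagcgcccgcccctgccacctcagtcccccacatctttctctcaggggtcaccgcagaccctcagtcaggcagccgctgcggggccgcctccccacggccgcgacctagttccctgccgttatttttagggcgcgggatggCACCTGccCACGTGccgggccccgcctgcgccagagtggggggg

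Windows were found for 6 of the 8 genes, 7 windows in all. CANNTG, which reads the same on both strands, occurred in 6 of these 7 windows and in 66.2% of 32851 windows of the same length before mouse transcription starts. The second start of Slc12a5 held the form CACGTG (6.02% of all windows), which is itself a CANNTG, and the window of Gad1 held TATAAA, searched on both strands (12.4% of all windows). TAATTA, also searched on both strands, was in none of the 7 windows and in 4.84% of all. The GC content of the printed windows was 58.0% to 67.2%, against a median of 52.4% over all windows. These matches describe the letters and do not mark sites.

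The 7 libraries held 7197692 to 18879762 reads on genes, and a count of 0 allowed up to 4.64 normalized counts in the shallowest, counting error only. Rn45s, a ribosomal RNA gene, took 2.52%, 2.79% and 2.63% of the reads in 3xCR (replicates 2 to 4). In GPC6 (replicates 1 to 4) it took 1.39%, 0.963%, 0.972% and 0.914%, so the groups did not overlap. In normalized counts, groups lay apart with GPC6 lower for 3.52% of all genes tested. The part of this difference between the groups in the other results was not tested. Gpc6, the overexpressed gene, stood at 217, 226 and 126 normalized counts among the 3xCR libraries (replicates 2 to 4). Among the GPC6 libraries (replicates 1 to 4) it stood at 675, 263, 3434 and 5084. The library labelled GPC6 replicate 2 thus lay near the 3xCR level, and GPC6 replicate 1 also stood apart, with the highest summed hypothalamic neuron markers (1215 against 20.7 to 93.1 normalized counts in the other libraries) and the lowest summed proliferation markers (470 against 3814 to 10790). Neuronal RNA was present in every library, with a summed level of 15 pan-neuronal markers of 8939 to 15200 normalized counts in 3xCR and 10960 to 80270 in GPC6. The sum leans on its most abundant genes, and single markers differed in their spread. Among the 3xCR libraries (replicates 2 to 4) Snap25 had 1440, 681 and 126 and Rbfox3 218, 102 and 13.8. Uchl1 had 3410, 4036 and 2713 there. Neurod6 and Tbr1 of the glutamatergic list, Vip of the interneuron list and Drd2 of the striatal list were at 0 in a 3xCR library, and Tbr1 was at 0 in GPC6 replicate 2.

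Gad1 (chromosome 2, 70553072 to 70602014, GRCm38) encodes GAD67, the decarboxylase that supplies most of the cell's GABA. Among the 3xCR libraries (replicates 2 to 4) Gad1 had 485, 196 and 91.2 normalized counts, and among the GPC6 libraries (replicates 1 to 4) it had 4550, 403, 1811 and 726. The groups overlapped, as GPC6 replicate 2 lay below 3xCR replicate 2, and the other GPC6 libraries lay above all of 3xCR. The means were 258 ± 204 (SD, n = 3) and 1873 ± 1884 (SD, n = 4), a log2 fold change of 2.59 (SE 0.87) with an adjusted p of 0.730 in limma with Benjamini-Hochberg adjustment.

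Gad2 (chromosome 2, 22622205 to 22693874) encodes GAD65, the decarboxylase of the nerve terminal. In normalized counts it stood at 261, 130 and 33.1 in the 3xCR libraries and 2762, 327, 1058 and 330 in the GPC6 libraries, in the same order of replicates as above and below. It was the 1 member of 8 whose groups did not overlap, with GPC6 replicates 2 and 4 not far above 3xCR replicate 2. The means of 141 ± 114 (SD, n = 3) and 1119 ± 1148 (SD, n = 4) gave a log2 fold change of 2.83 (SE 0.92), with an adjusted p of 0.730 in limma. Groups lay apart in this direction for 2.80% of all genes tested and in the opposite direction, with every GPC6 library lower, for 3.52%.

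Slc32a1 (chromosome 2, 158610767 to 158615748) encodes VGAT, the transporter that fills synaptic vesicles with GABA or glycine and marks inhibitory terminals. Its normalized counts were 129, 46.5 and 19.3 in 3xCR and 1754, 129, 592 and 123 in GPC6. GPC6 replicates 1 and 3 stood far above the rest, and GPC6 replicates 2 and 4 lay at the level of 3xCR replicate 2. The lowest value rested on 14 reads, with an exact Poisson 95% interval of 10.6 to 32.4 normalized counts for counting error. The log2 fold change was 2.85 (SE 1.04), from means of 65.1 ± 57.3 (SD, n = 3) and 650 ± 768 (SD, n = 4), with an adjusted p of 0.730 in limma. The exons of Slc32a1 share 697 bases with those of the antisense gene Gm14205, and the strand setting of the counting is not stated.

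Without adjustment, Gad1, Gad2 and Slc32a1 were the 3 members with a limma p under 0.05, and all 3 were higher in GPC6. Among all 14782 genes tested, 2.74% passed this unadjusted threshold as higher in GPC6 and 1.92% as lower, and 0 genes (0%) passed after adjustment in limma, against 0 in edgeR and 9 in DESeq2. With a weight per library (arrayWeights of limma) 1962 genes passed after adjustment, with Gad1, Gad2, Slc32a1 and Slc12a5 among them (adjusted p = 0.029 for each), in a fit whose weights lay mostly on 3xCR replicate 3 and GPC6 replicate 3. Of the 689 genes at the unadjusted threshold 58.8% were higher in GPC6, a share of 45.7% after scaling to an equal upper quartile and 68.0% after scaling to an equal total. With 3xCR replicate 4 left out, 0 members and 121 genes passed the unadjusted threshold. With GPC6 replicate 2 left out, 5 members and 1399 genes passed, Slc12a2 (lower) and Slc12a5 (higher) joining the 3. Without 3xCR replicates 2 or 3 or GPC6 replicates 3 or 4 the genes at that threshold numbered 1134, 377, 384 and 1159.

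**Figure D1:**
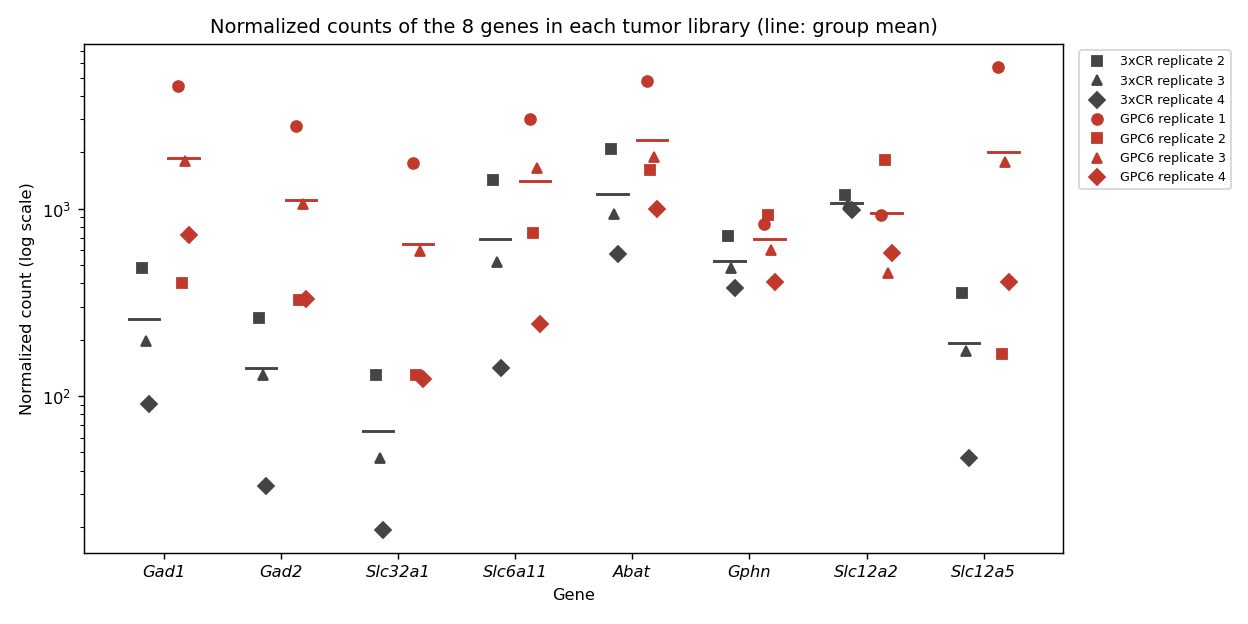
Normalized counts (log scale) of the 8 genes in each of the 7 libraries, 1 point per library, with 3xCR in grey, GPC6 in red and a line at each group mean. GPC6 replicates 1 and 3 are the highest libraries for Gad1, Gad2, Slc32a1, Slc6a11 and Slc12a5, and 3xCR replicate 4 is the lowest for every gene except Slc12a2.

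Slc6a11 (chromosome 6, 114131241 to 114249952) encodes GAT3, which takes up GABA into astrocytes. Slc6a11 stood at normalized counts of 1417, 521 and 141 in 3xCR and 3008, 740, 1656 and 242 in GPC6. GPC6 replicates 1 and 3 were highest, while GPC6 replicate 4 lay below 2 of the 3 3xCR libraries. The log2 fold change was 1.04 (SE 0.99), with a 95% interval of -1.26 to 3.35 and an adjusted p of 0.770 in limma. It was 0.18 without 3xCR replicate 4 and 0.50 without GPC6 replicate 1, and 1.84 without 3xCR replicate 2 and 1.71 without GPC6 replicate 4. Across the 7 libraries its log2 values followed the score of 9 astrocyte markers (Pearson r = 0.90) and that of 9 striatal projection neuron markers (r = 0.96), as a description over points that each share a library. A list score is the mean of its genes' log2 values, each taken from its mean over the 7 libraries. The summed astrocyte markers were 15560 to 62060 normalized counts in 3xCR and 27850 to 66120 in GPC6, with 6 of 9 higher on average in GPC6.

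Abat (chromosome 16, 8513429 to 8621568) encodes GABA transaminase, the mitochondrial enzyme that degrades GABA in neurons and glia. Its normalized counts were 2082, 942 and 575 in 3xCR and 4804, 1618, 1886 and 999 in GPC6. GPC6 replicate 1 was highest, and the other 3 GPC6 libraries lay within the 3xCR range. The log2 fold change was 0.91 (SE 0.60), with a 95% interval of -0.47 to 2.29 and an adjusted p of 0.730 in limma. Without 3xCR replicate 4 or GPC6 replicate 1 it was 0.48, and without 3xCR replicate 2 it was 1.41.

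Gphn (chromosome 12, 78226379 to 78684772) encodes gephyrin, the scaffold of inhibitory synapses, which also makes the molybdenum cofactor in many cell types. Its normalized counts were 712, 485 and 376 in 3xCR and 830, 931, 606 and 406 in GPC6. The groups overlapped in a narrow range of 2.48-fold, the smallest range of the 8 genes, and the highest library was GPC6 replicate 2, in which Slc12a5 and Gad1 were far from their highest. The log2 fold change was 0.38 (SE 0.35), with a 95% interval of -0.43 to 1.2 and an adjusted p of 0.764 in limma. Without 3xCR replicate 4 or GPC6 replicate 2 it was 0.17 and 0.22, and without 3xCR replicate 2 or GPC6 replicate 4 it was 0.63 and 0.62. Gphn followed the pan-neuronal score with r = 0.42 and the striatal score with r = 0.82. Its exons share 147 bases with those of Gm48226, a gene on the opposite strand.

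Slc12a2 (chromosome 18, 57878678 to 57946821) encodes NKCC1, which brings chloride into cells with sodium and potassium. Slc12a2 stood at normalized counts of 1192, 1059 and 989 in 3xCR and 930, 1817, 455 and 582 in GPC6. The 3xCR libraries lay close together, and the GPC6 libraries lay on both sides of them, with GPC6 replicate 2 above and the other 3 below. Slc12a2 was the only member with a lower mean log2 value in GPC6, and its log2 fold change of -0.40 (SE 0.45) had a 95% interval of -1.43 to 0.64 and an adjusted p of 0.806 in limma. The direction was the same in all 20 other settings of the fit, between -0.97 and -0.04, and among these it was -0.78 without GPC6 replicate 2, -0.11 without GPC6 replicate 3 and -0.23 without GPC6 replicate 4. Its log2 values followed the oligodendrocyte score with r = 0.79 and the oligodendrocyte precursor score with r = 0.42. The summed oligodendrocyte markers, highest in GPC6 replicate 2 (113600 normalized counts) and lowest in GPC6 replicates 3 and 4 (24500 and 15760), were 66270 to 83600 in 3xCR. In GPC6 replicate 1 they were 98540, above all of 3xCR, while its Slc12a2 lay below all of 3xCR. Of these markers 6 of 7 were lower on average in GPC6. The summed choroid plexus markers were 218 to 3765 normalized counts in 3xCR and 66.9 to 12630 in GPC6, and Slc12a2 followed that score with r = 0.09. The part of these marker lists in the result was not tested.

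Slc12a5 (chromosome 2, 164960802 to 164999731) encodes KCC2, which expels chloride from neurons together with potassium. Its normalized counts were 354, 173 and 47.0 in 3xCR and 5711, 168, 1783 and 404 in GPC6. GPC6 replicates 1 and 3 were highest, GPC6 replicate 4 lay just above 3xCR replicate 2, and GPC6 replicate 2 lay just below 3xCR replicate 3. The log2 fold change was 2.67 (SE 1.22) with a 95% interval of -0.14 to 5.48 and an adjusted p of 0.730 in limma. It was 1.79 without GPC6 replicate 1, 1.88 without 3xCR replicate 4 and 3.48 without GPC6 replicate 2. At 122-fold it had the widest range of the 8 genes.

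**Figure D2:**
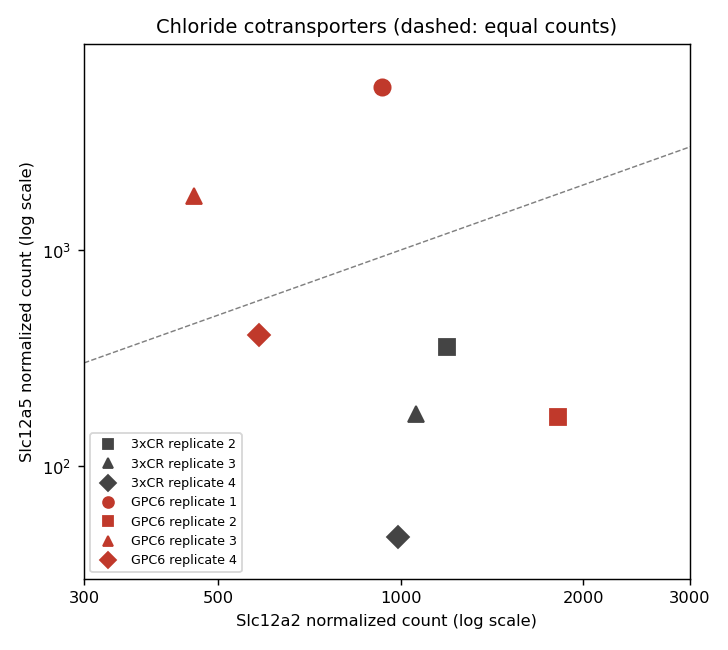
Normalized counts of Slc12a5 (y axis) against Slc12a2 (x axis), both on log scales, 1 point per library, with 3xCR in grey, GPC6 in red and a dashed line at equal counts, which is not corrected for gene length. GPC6 replicates 1 and 3 lie above the line, and the other 5 libraries lie below it, GPC6 replicate 2 at the lower right with the most Slc12a2.

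The ratio of Slc12a5 to Slc12a2 in normalized counts, which does not depend on the scaling of a library, was 0.297, 0.163 and 0.0475 among the 3xCR libraries. Among the GPC6 libraries it was 6.14, 0.0924, 3.92 and 0.694. Of the GPC6 libraries 3 lay above every 3xCR library, and GPC6 replicate 2 lay between 3xCR replicates 3 and 4. The mean log2 ratio was -2.92 ± 1.35 (SD, n = 3) in 3xCR and 0.16 ± 2.75 (SD, n = 4) in GPC6, a difference of 3.08 or 8.44-fold. A two-sided exact permutation test gave p = 0.171 (0.686 after Benjamini-Hochberg adjustment over 6 ratios), and such a test of 3 against 4 libraries cannot go below 0.057. Without GPC6 replicate 2 the difference was 4.27 (exact permutation p = 0.100, the smallest p that 3 against 3 allow), and without GPC6 replicate 1 it was 2.26 (p = 0.300). Per kilobase of exon the ratio was 0.436, 0.240 and 0.0696 in 3xCR and 9.0, 0.136, 5.75 and 1.02 in GPC6, above 1 in GPC6 replicates 1 and 3, near 1 in replicate 4 and below 1 in the other libraries.

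Measured against Snap25, a gene of the presynaptic fusion machinery of all neurons, Slc12a5 varied little. The ratio of Slc12a5 to Snap25 was 0.246, 0.254 and 0.374 in 3xCR and 0.284, 0.237, 0.239 and 0.162 in GPC6. It spanned 2.30-fold, while Slc12a5 itself spanned 122-fold and Snap25 160-fold. The groups overlapped, with a log2 difference of -0.34 (two-sided exact permutation test, p = 0.286, adjusted p = 0.686). Slc12a5 also followed the pan-neuronal score, in which Snap25 is 1 of 15 genes, with r = 0.995, and all 15 of those genes were higher on average in GPC6 (median log2 fold change 1.63).

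**Figure D3:**
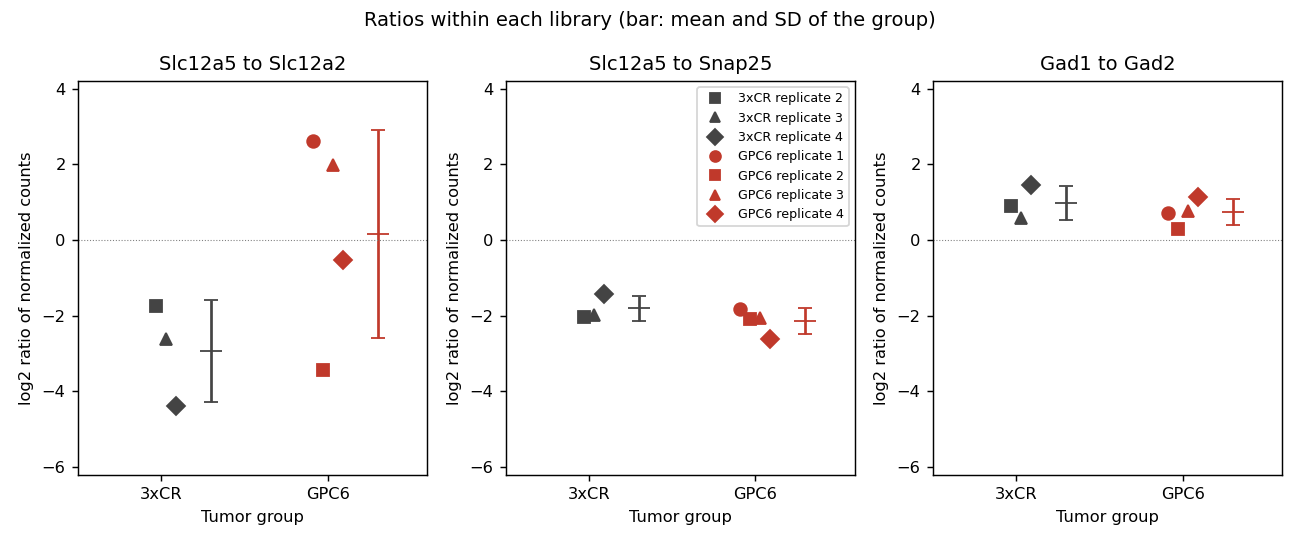
Log2 ratios of normalized counts within each library for Slc12a5 to Slc12a2, Slc12a5 to Snap25 and Gad1 to Gad2, with 1 point per library and a bar at the mean and SD of each group (n = 3 and n = 4) on one common axis. The first ratio spans 129-fold over the libraries and the other ratios 2.30-fold and 2.23-fold.

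The decarboxylases kept nearly the same proportion to each other. The ratio of Gad1 to Gad2 was 1.86, 1.51 and 2.75 in 3xCR and 1.65, 1.23, 1.71 and 2.20 in GPC6. It stayed in a range of 2.23-fold, and the groups overlapped. Per kilobase of exon the ratio was 1.43, 1.16 and 2.11 in 3xCR and 1.27, 0.948, 1.316 and 1.69 in GPC6, so that Gad1 was the higher of the pair in all libraries except GPC6 replicate 2. The log2 difference was -0.25 (two-sided exact permutation test, p = 0.457, adjusted p = 0.686). Gad1, Gad2 and Slc32a1 correlated with each other with r of 0.98 to 0.99 over the 7 libraries, and Slc12a5 correlated with them with r of 0.96 to 0.98 as a description over points that share their library. Like Slc12a5, these genes also followed the pan-neuronal score, with r = 0.97 for Gad1, 0.94 for Gad2 and 0.96 for Slc32a1.

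Slc32a1 was set against Slc17a7, the vesicular glutamate transporter of cortical and hippocampal excitatory neurons. The ratio of Slc32a1 to Slc17a7 was 0.117, 0.0888 and 0.875 in 3xCR and 0.182, 2.11, 0.0539 and 0.0720 in GPC6. The extremes, 39.2-fold apart, were both GPC6 libraries, replicates 2 and 3. The log2 difference between the groups was -0.09 (two-sided exact permutation test, p = 1.0), and it turned positive when any 1 of 3xCR replicate 4, GPC6 replicate 3 or GPC6 replicate 4 was left out (0.95, 0.54 and 0.40). Slc17a7 had normalized counts of 1107, 524 and 22.1 in 3xCR and 9631, 61.3, 10980 and 1715 in GPC6.

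GPC6 replicates 2 and 4 differed in their neuron markers. GPC6 replicate 2 had a striatal projection neuron score of 0.46 and a glutamatergic score of -3.09, while GPC6 replicate 4 had scores of -2.13 and 0.59. The cortical interneuron score was -1.72 in replicate 2 and 0.30 in replicate 4. Both libraries had nearly the same Gad2 (327 and 330) and Slc32a1 (129 and 123), but Gad1 was 403 in replicate 2 and 726 in replicate 4. Slc6a11 was 740 in replicate 2 and 242 in replicate 4, and Slc12a5 was 168 and 404. The part of these neuron markers in the ratios was not tested. The ratio of Slc32a1 to Snap25 was 0.0898, 0.0683 and 0.154 in 3xCR and 0.0871, 0.183, 0.0792 and 0.0496 in GPC6, a range of 3.69-fold with overlapping groups (log2 difference -0.14, two-sided exact permutation test, p = 0.857). This difference turned positive without 3xCR replicate 4 (0.18) or GPC6 replicate 4 (0.14).

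**Figure D4:**
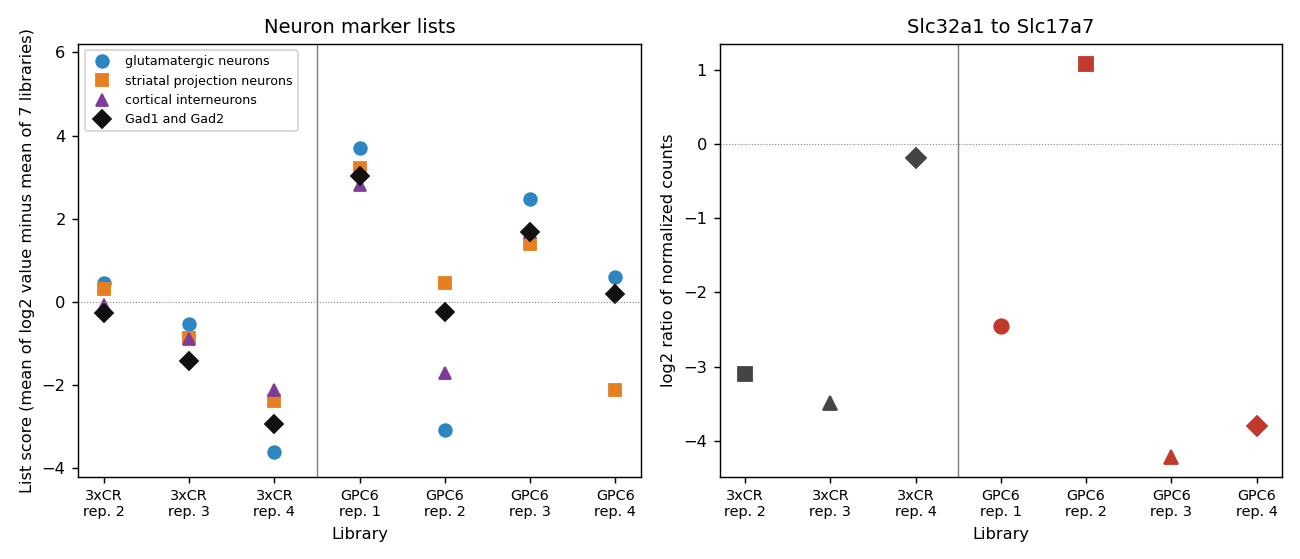
Left, scores of 3 neuron marker lists and of Gad1 with Gad2 in each library, on the log2 scale as the distance from the mean of the 7 libraries. Right, the log2 ratio of Slc32a1 to Slc17a7, which is highest in GPC6 replicate 2, where the glutamatergic score is -3.09 and the striatal score 0.46.

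Levels of the 8 genes were ordered per kilobase of exon. In 3xCR the order of mean normalized counts per kilobase was Abat (155), Gphn (140), Slc6a11 (137), Slc12a2 (98.9), Gad1 (33.7), Slc12a5 (25.7), Gad2 (24.1) and Slc32a1 (23.3). The step from Slc12a2 to Gad1 was the only one between neighbours that exceeded the SD of both. In GPC6 the order was Abat (300.3), Slc6a11 (280), Slc12a5 (271), Gad1 (245), Slc32a1 (232), Gad2 (191), Gphn (185) and Slc12a2 (86.7), and only the step from Gphn to Slc12a2 exceeded the SD of both. Slc12a5 was first of the 8 in GPC6 replicate 1 and last in GPC6 replicate 2.

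The mean log2 value was higher in GPC6 for 7 of the 8 members and lower for 1, with a median log2 fold change of 1.82. Over all genes tested 7142 were higher and 7640 lower, with a median of -0.02. The median of the 8 was 1.15 without GPC6 replicate 1, 1.18 without 3xCR replicate 4 and 2.52 without 3xCR replicate 2. When the pan-neuronal score entered the limma fit as a covariate, the median of the 8 was 0.21. In that fit the log2 fold changes were 0.86 for Gad1, 1.1 for Gad2, 0.86 for Slc32a1 and 0.20 for Slc12a5, and those of Slc6a11 (-0.54) and Abat (-0.01) were below 0. Only Gad1 then had an unadjusted p under 0.05, among 306 such genes in all, of which 20.9% were higher in GPC6, and the score was itself higher on average in GPC6, with groups that overlapped (-1.82 to -0.17 in 3xCR and -1.07 to 2.35 in GPC6).

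The 3 genes most like each member were those of highest Pearson correlation of log2 values over the 7 libraries, among genes tested. For Gad1 they were Mpp3 (r = 0.997), Gucy1b3 (0.994) and Atp6v1a (0.994), for Gad2 Lrfn5 (0.997), Grin1 (0.995) and Erc2 (0.995), and for Slc12a5 Atp1b1 (0.998), Ankrd34a (0.997) and Cntnap3 (0.996). Slc32a1 was closest to Atp6v1a, Nap1l2 and Cpne5 (0.997 to 0.998). Slc6a11 was closest to Fbxo44, Timm9 and the dopamine receptor gene Drd2 (0.989 to 0.991), and Abat to Kcnip2, B930041F14Rik and Grik2 (0.995 to 0.997). Gphn was closest to Tmem196, Sh3bp5 and Sorcs1 (0.986 to 0.990). Slc12a2 was closest to Atp10b, Alox5 and Rnd2 (0.972 to 0.981).

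Another 36 genes of the same pathway were looked at, of which 33 were abundant enough to be tested, while Slc6a12, Slc12a1 and Slc12a3 were not. None passed an adjusted p of 0.05, 24 were higher and 9 lower on average in GPC6, and the median log2 fold change was 0.38. Over all genes tested 7142 were higher and 7640 lower, with a median of -0.02. At an unadjusted limma p under 0.05 there were 4, all higher in GPC6 (adjusted p = 0.730 for each). Of all genes tested 2.74% passed that threshold as higher in GPC6 and 1.92% as lower. Aldh5a1, the succinic semialdehyde dehydrogenase that acts after Abat, had normalized counts of 600.2, 280 and 122 in 3xCR and 921, 698, 675 and 604 in GPC6. The groups did not overlap, though by a narrow margin, and the log2 fold change was 1.38 (SE 0.49). Wnk2, a kinase of the family that regulates NKCC1 and KCC2 in opposite directions, had 259, 161 and 66.3 in 3xCR and 1689, 267, 662 and 279 in GPC6. Its groups did not overlap either, again by a narrow margin (259 in 3xCR replicate 2 and 267 in GPC6 replicate 2). The log2 fold change of Wnk2 was 1.93 (SE 0.73). Groups lay apart with GPC6 higher for 2.80% of all genes tested and with GPC6 lower for 3.52%.

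Gabbr2, a subunit of the GABA-B receptor, had normalized counts of 287, 113 and 27.6 in 3xCR and 2034, 211, 1117 and 503 in GPC6. These overlapped at GPC6 replicate 2, and the log2 fold change was 2.84 (SE 0.95). Its partner Gabbr1 had a log2 fold change of 1.45. Slitrk3, an adhesion protein of inhibitory synapses, had normalized counts of 346, 189 and 64.9 in 3xCR and 507, 450, 327 and 409 in GPC6. Its groups overlapped, as GPC6 replicate 3 lay below 3xCR replicate 2, and the log2 fold change was 1.36 (SE 0.52).

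By role, the genes that supply GABA or break it down were higher on average in GPC6 in 6 of 6 cases, with Glul, the glutamine synthetase of astrocytes and the one of highest mean count, at 0.06 (log2). Among other cation-chloride cotransporters 2 of 5 tested were higher and 3 lower, with Slc12a4, of highest mean count, at -0.51 (log2). The kinases divided 3 against 3, from -0.56 for Wnk4 to the value of Wnk2 above, with Wnk1, of highest mean count, at -0.20. Of 7 gephyrin partners and cofactor genes 5 were higher, with Nlgn2, of highest mean count, at 0.38 and Mocs1 at -0.30. Chloride channels and carbonic anhydrases were higher in 4 of 5 cases, from -0.42 for Car2 to 1.46 for Ano2, with Clcn3, of highest mean count, at 0.32, and the GABA transporter gene Slc6a13 had a log2 fold change of 0.26.

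**Figure D5:**
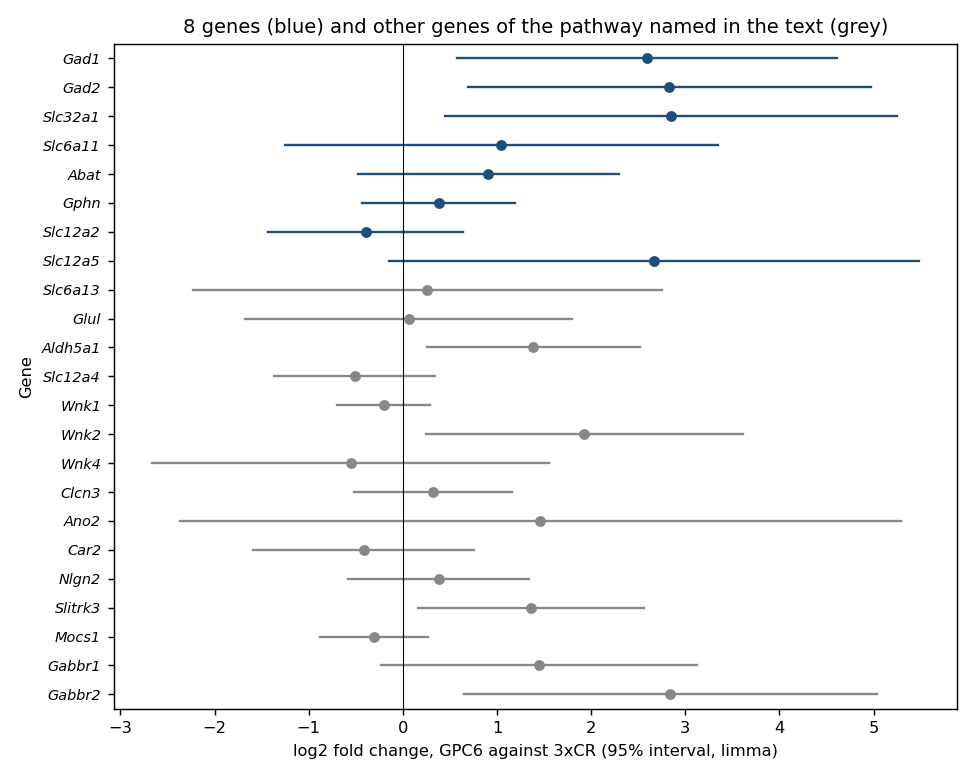
Log2 fold changes of GPC6 against 3xCR on the scale of log2(normalized count + 1), with 95% intervals of limma that are not adjusted for the number of genes, for the 8 genes (blue) and 15 other pathway genes named in the text (grey). The intervals of Gad1, Gad2, Slc32a1, Aldh5a1, Wnk2, Slitrk3 and Gabbr2 lie above 0, and none of the adjusted p-values is under 0.05.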

How the data were processed

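Bulk RNA of 7 endpoint tumors was sequenced from a stranded poly(A) library kit. Alignment to mm10 was done by the authors with STAR (2.5.0a in the submitters' processing notes), followed by counting on genes with Rsamtools and GenomicFeatures and normalization with DESeq2 (1.20.0). The values they deposited are a normalized signal per gene, namely the count divided by a size factor per library, with no correction for length. Groups and replicate numbers came from the sample labels. The table held 19282 entries, of which 25 bore calendar dates in place of gene names and were left out. They took 0.254% to 0.361% of each library's reads.

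All values (100%) lay within 0.01 of a whole number of reads, which gave the reads behind them. Groups were compared by limma 3.58.1 (R 4.3.3) fitted to log2(normalized count + 1) for the 14782 genes with a mean of at least 10, with a variance trend, two-sided, and Benjamini-Hochberg adjustment over all of them. On this scale the change of a gene of low count is understated. Ratios were compared by two-sided exact permutation tests (SciPy 1.17.1). On the recovered reads edgeR 4.0.16, DESeq2 1.42.0 and limma voom were run as alternatives, beside other pseudocounts, filters, scalings, weights per library, a variance without a trend, each library left out, a replicate block and a pan-neuronal covariate, 20 in all for the fit and 10 for each ratio. The fit was tested on simulated counts that had the same dispersion for every gene and no difference in cell mixture between libraries. That test therefore does not show how the fit performs on libraries as uneven as these. Exon lengths and positions came from GENCODE for GRCm38 and promoters from RefSeq.

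The members and lists were chosen with earlier results of these data known. Named were all members, Gpc6, the genes of the ratios, the 3 genes most like each member, and from each pathway list the gene of highest mean count, those of largest and smallest fold change and any with an unadjusted p under 0.05, except for some that are not reported here, among them a gene of 1 of the 6 ratios. Marker lists covered pan-neuronal, glutamatergic, interneuron, striatal, hypothalamic and immature GABA neuron genes, astrocytes, oligodendrocytes and their precursors, microglia, endothelium, choroid plexus and proliferation.

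Replicate numbers were not taken to pair the samples. Same-numbered libraries deviated from their group means with correlations of -0.19, 0.12 and 0.30 for numbers 2, 3 and 4. Libraries of different number had correlations of -0.46 to 0.50, so these values cannot show whether same-numbered samples share an origin.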

Additional observations from a re-analysis of the deposited data

Results flagged for a closer look

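Among 60 quantities per group of 4 libraries looked at, 2 had a library far from the other 3 by Dixon's criterion at the 95% level, where chance gives about 3. Slc12a7, a potassium-chloride cotransporter found in many tissues, had a normalized count of 246 in GPC6 replicate 1 against 773 to 919 in the other GPC6 libraries. Slc12a9, of the same family, had 1188 in GPC6 replicate 2 against 675 to 734 in the others.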

How the results depend on the processing

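With weights per library (arrayWeights), 1962 genes and 4 members (Gad1, Gad2, Slc32a1 and Slc12a5, adjusted p = 0.029 for each) passed the adjusted threshold in limma, and 7 members passed the unadjusted one, as did 5105 of the 14782 genes. That fit gave 3xCR replicate 3 a weight of 8.71 and GPC6 replicate 3 one of 4.47, against 0.301 to 0.849 for the others, and so rests largely on those libraries. DESeq2 called 9 genes after adjustment, no member among them, and edgeR and voom 0, with 1793, 991 and 499 genes at an unadjusted p under 0.05. Members at an unadjusted p under 0.05 numbered 4 in DESeq2, 4 in edgeR and 2 in voom, 1 with the pan-neuronal covariate, and 0 to 5 when 1 library was left out. With that covariate the median of the members was 0.21, and Slc6a11 (-0.54) and Abat (-0.015) changed sign. Leaving out 1 library moved the log2 difference of Slc32a1 to Slc17a7 between -1.23 and 0.95 and that of Slc32a1 to Snap25 between -0.49 and 0.18, and the cause was not tested.

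The replicate block, for which the numbers give no pairing and in which GPC6 replicate 1 has no partner and adds nothing to the contrast, left 0 genes called, 3 members among 678 genes at an unadjusted p under 0.05 (48.1% of them higher in GPC6), a median of 1.15 and a Slc12a5 to Slc12a2 difference of 2.26 (exact permutation p = 0.50). An exact permutation test of 3 libraries against 4 cannot go below 0.057, and the 14 to 66 reads behind the lowest values of Gad1, Gad2, Slc32a1 and Slc12a5 limit those values.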

Other observations

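Markers of immature GABA neurons were few but present, and all 8 of the list were higher on average in GPC6 (median log2 fold change 2.43). Dlx1, a homeobox gene of GABA neuron precursors, stood at 8.22, 3.72 and 0 normalized counts among the 3xCR libraries (replicates 2 to 4) and at 127, 0.988, 55.0 and 15.4 among the GPC6 libraries (replicates 1 to 4). GPC6 replicate 2 thus lay below the limit that a count of 0 allows there (2.96), and the 0 of 3xCR replicate 4 allows 4.14. Dcx, a microtubule protein of young neurons of any transmitter, followed another order, with 933, 236 and 180 in 3xCR and 221, 1435, 190 and 254 in GPC6. It was highest in GPC6 replicate 2, where Slc12a2 was highest as well. Among interneuron markers Sst had 249, 120 and 38.7 in 3xCR and 1812, 104, 1222 and 217 in GPC6, and Lamp5 had 56.5, 24.2 and 5.52 in 3xCR and 1853, 63.2, 236 and 98.8 in GPC6. The 10 interneuron markers were all higher on average in GPC6 (median log2 fold change 1.79), and none of the 18 markers of these lists passed an adjusted p of 0.05 in limma. Dlx1, Dcx, Sst and Lamp5 were chosen after their values were seen.

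Microglial markers ran the other way, with summed normalized counts of 11740 to 15910 in 3xCR and 7721 to 10780 in GPC6, and all 6 lower on average in GPC6. Gad1 and Gad2 followed the microglial score with r = -0.87 and r = -0.88 over the 7 libraries. For the other members r was -0.85 (Slc32a1), -0.78 (Slc12a5), -0.77 (Abat), -0.58 (Slc6a11 and Gphn) and 0.12 (Slc12a2). The part of the microglial score in the values of these genes was not tested.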
